A study of Mus musculus with 9 samples.

Results

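Basal keratinocytes of mice on a high-fat diet (HFD) were compared with those of control mice on a normal diet. The comparison used 6 of the series' 9 RNA-seq libraries, 3 for each diet. Both groups were wild-type C57BL/6 mice aged 5 months, and the cells came from plantar skin, the hairless skin of the footpad. The other 3 libraries came from aged wild-type C57BL/6 mice of 24 months, for which the labels give no diet, and they entered only the filter on low genes and the estimate of spread. Expression was given in FPKM, the fragments of a gene scaled to its length and to the library's size. Genes were used if their mean reached 1 FPKM over the 9 libraries, which left 10367 of the 22399 rows of the table. The labels give neither the make-up nor the length of the diet, and they do not say how many animals stand behind a library or whether replicates were separate animals. The reads recovered from the FPKM steps of these 6 libraries summed to 23.5 to 35.8 M per library. The p-values rest on the spread between libraries within the 3 groups, the aged libraries included, and that spread may be technical.

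Basal keratinocytes form the lowest layer of the epidermis. They hold on to the basement membrane through hemidesmosomes, divide, and send daughter cells upward to become spinous, granular and cornified cells. They also make fatty acids, cholesterol and ceramides for the barrier and run a circadian clock that times division and metabolism. The cells were sorted for CD49f, the integrin alpha 6 chain of the hemidesmosome, and against CD34, which marks hair follicle stem cells. Itga6, the gene of CD49f, was at 134, 129.6 and 137 FPKM in control replicates 1 to 3 and at 160.2, 163 and 167 in HFD replicates 1 to 3. Every HFD library was above every control library, and the difference in log2(FPKM + 1), the scale of all differences here, was 0.29 ± 0.07 (SE). Limma gave a Benjamini-Hochberg adjusted p of 0.0168 for it, a call that ended without control replicate 2, HFD replicate 2 or HFD replicate 3 (highest adjusted p = 0.0648). Cd34 did not exceed 0.0425 FPKM in any of the 6 libraries. Krt14, the basal keratin, was at 11012, 11203 and 14192 FPKM in control and 13025, 13796 and 14788 in HFD. Krt10, a keratin of the layers above the basal one, was at 3805, 4461 and 3328 FPKM in control and 4785, 5167 and 3480.3 in HFD. The groups overlapped for Krt14 and Krt10, and neither passed the test. Of 24 tested genes of basal identity, 3 were higher and 5 lower at an adjusted p under 0.05, with a median of -0.05. The shares over all genes tested were 8.26% and 8.76%. With 1 of the 6 libraries left out, 1 to 3 were higher and 2 to 5 lower. After the GC correction described below, 2 were higher and 3 lower. In such bulk samples, fewer cells of a type and less RNA per cell cannot be told apart.

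A gene was called at an adjusted p under 0.05. Of the genes tested, 856 were called higher in HFD (8.26%) and 908 lower (8.76%), 17% in all. The shares by direction are the background against which the gene groups below are read. Most changes were small. The median difference was 0.39 among genes called higher and -0.40 among genes called lower, 250 and 241 of them reached 0.5 in size, and 19 and 20 reached 1. Among the 371 genes with a mean over 100 FPKM in the 6 libraries, 37 were higher and 8 lower, whereas among the 3140 genes under 5 FPKM 164 were higher and 203 lower. The counts fell to 385 higher and 364 lower without control replicate 2, to 449 and 427 without HFD replicate 1, to 431 and 471 without HFD replicate 2 and to 485 and 529 without HFD replicate 3. Without control replicate 3 there were 631 higher and 599 lower, and after scaling each library to its total FPKM there were 597 and 1165. The calls of 267 higher and 238 lower genes held in all 21 alternative settings in which they were tested. Unless a sentence says otherwise, each gene named below as changed is one of these.

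**Figure D1:**
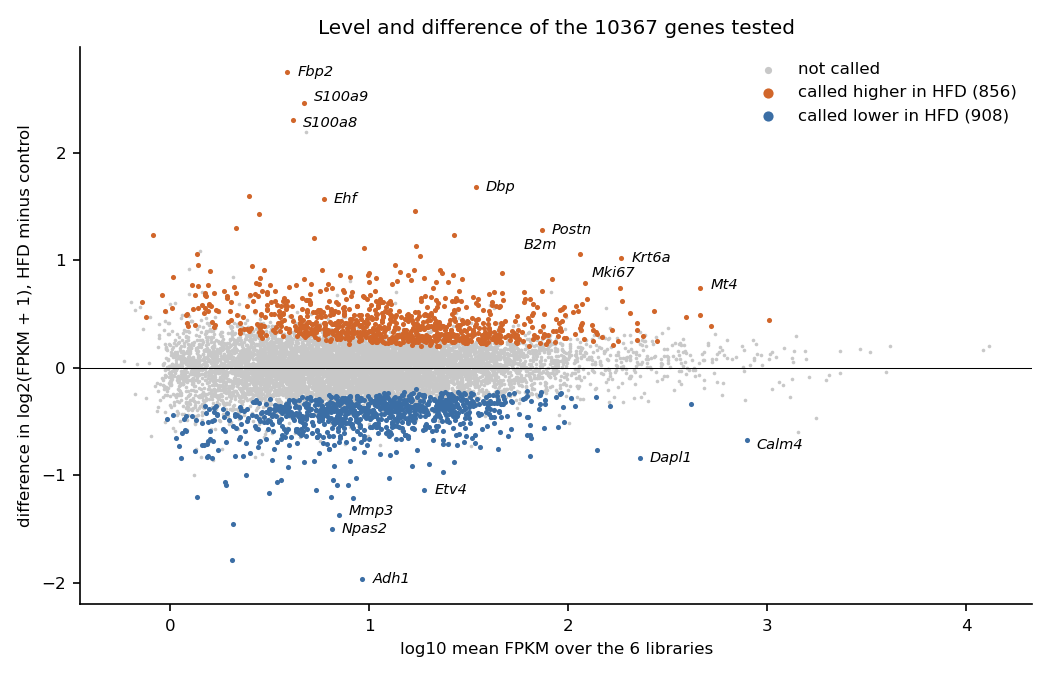
Each point is 1 of the 10367 genes, with its mean FPKM over the 6 control and HFD libraries (log10) on the horizontal axis and its difference in log2(FPKM + 1), HFD minus control, on the vertical axis. Genes called higher (856) and lower (908) are coloured. Most coloured points lie within 1 of the zero line, and the largest rise is that of Fbp2 (2.75).

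The calls moved with the base composition of the transcripts. Genes called higher had a median GC content of 45.0% and genes called lower 55.8%, against 49.8% for all genes tested. In the lowest of 8 GC bins of equal size 232 genes were higher and 8 lower, and in the highest bin 26 were higher and 337 lower. After a GC correction within each library, 473 of the 856 and 466 of the 908 genes were still called in the same direction, and in all 606 genes were higher (5.85%) and 555 lower (5.35%). The part of GC content in the group differences was not tested further. The genes named as holding in all settings include this correction among the 21.

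Fbp2 rose most. It is the form of fructose bisphosphatase best known from muscle, which turns fructose 1,6-bisphosphate back to fructose 6-phosphate. Fbp2 was at 0.126, 0.621 and 0.0872 FPKM in control and at 8.56, 6.30 and 7.64 in HFD. It was under 1 in all control libraries and over 6 in all HFD libraries (difference 2.75 ± 0.17, adjusted p = 3.6e-05). The gene lies on mouse chromosome 13, from 62836877 to 62858422 on GRCm38. S100a8 encodes a subunit of calprotectin, a calcium and zinc binding alarmin that keratinocytes make under stress. S100a8 was at 0.532, 0.657 and 0.323 FPKM in control and at 2.35, 7.23 and 13.8 in HFD (2.31 ± 0.40). All HFD libraries were above all control libraries, but they spread widely, with HFD replicate 1 lowest. Its partner S100a9 was at 1.59, 0 and 0.368 and 2.80, 9.61 and 13.9 FPKM. The S100a9 groups did not overlap either (2.47 ± 0.60, adjusted p = 0.0188), but its call ended without control replicate 2 or 3, without HFD replicate 2 or 3 and in 3 other settings (highest adjusted p = 0.0750).

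Other genes of low level rose as well. Cdkn2a, which encodes the cell cycle inhibitor p16 and the p53 stabiliser p19Arf, was at 0, 0.212 and 0.0273 FPKM in control and 1.85, 1.67 and 1.16 in HFD (1.24 ± 0.14). Its mean over these 6 libraries was under 1 FPKM, so Cdkn2a passed the filter on level only with the aged libraries included. Tigd4, a transposase-derived protein, was at 0.293, 0.480 and 0.861 and 2.03, 2.18 and 2.36 FPKM (1.06 ± 0.14). Amhr2, the receptor of anti-Müllerian hormone, was at 0.460, 0.559 and 0.815 and 3.004, 1.97 and 1.53 FPKM (0.95 ± 0.17). Each of these had every HFD library above every control library. Gpha2, a subunit of the hormone thyrostimulin, was at 1.48, 1.08 and 0.624 FPKM in control and 6.10, 3.93 and 3.67 in HFD. Ly6k, a lipid-anchored surface protein, was at 0.445, 1.45 and 0.348 and 6.21, 3.12 and 3.46 FPKM, but 47.6% of its exon length is shared with an overlapping gene model. Neither overlapped between the groups.

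The transcription factors Ehf and Elf3, relatives in the ETS family that act in epithelial cells, both rose. Ehf was at 3.03, 2.63 and 1.80 FPKM in control and 7.96, 11.1 and 8.99 in HFD (1.57 ± 0.23). Elf3 was lower in level, at 0.694, 0.898 and 0.679 and 1.84, 2.43 and 1.73 FPKM (0.77 ± 0.16). The groups did not overlap for either gene. They were 2 of the 3 factors called higher among 39 lineage transcription factors tested, of which 4 were called lower, and they were the only ones whose call held in all settings. The lower count was 2 on omitting control replicate 3 and 0 or 1 on omitting control replicate 2 or any HFD library.

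**Figure D2:**
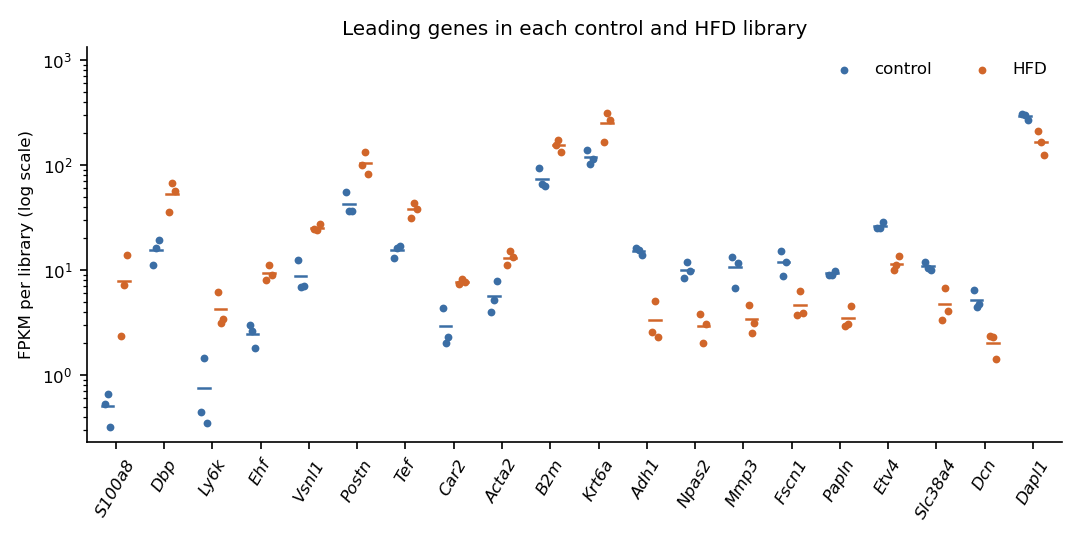
FPKM (log axis) of 20 leading genes in each of the 3 control and 3 HFD libraries, with a bar at each group mean. The 11 genes on the left were called higher and the 9 on the right lower in HFD, and for each gene the points of the 2 groups do not overlap.

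Adh1 fell most. Its product, an alcohol dehydrogenase, can turn retinol into retinal. Adh1 was at 16.1, 15.5 and 13.99 FPKM in control and 2.58, 5.09 and 2.29 in HFD (-1.96 ± 0.19, adjusted p = 7.8e-04). All HFD libraries were far below the controls, and HFD replicate 2 was the highest of them. The gene lies on mouse chromosome 3, from 138260991 to 138290698 on GRCm38. Papln, a secreted matrix protein, was at 9.06, 9.02 and 9.80 FPKM in control and 2.95, 3.08 and 4.55 in HFD (-1.20 ± 0.13). Osgin1, a target of the oxidative stress factor NRF2, was at 5.21, 4.25 and 4.66 and 2.08, 0.911 and 1.80 FPKM (-1.16 ± 0.17). Inha, the alpha subunit of inhibin, which opposes activin, was at 6.28, 12.6 and 8.97 FPKM in control and 3.84, 3.88 and 3.83 in HFD. The 3 HFD values of Inha were nearly equal, while the control values spread, with control replicate 2 highest. Wfikkn1, a secreted binder of myostatin and related ligands, was at 2.20, 3.37 and 3.30 and 0.755, 0.771 and 1.02 FPKM (-1.08 ± 0.13). Zbed3, an Axin-binding protein of the Wnt pathway, was at 3.17, 3.89 and 3.59 and 1.32, 1.39 and 1.11 FPKM (-0.999 ± 0.12). Rufy4, which acts in autophagy, was over 2 FPKM in all control libraries, at 2.05, 2.19 and 2.49, and under 1 in all HFD libraries, at 0.737, 0.760 and 0.964. Marveld1 and Dapl1 were more abundant genes among the falls. Marveld1, a membrane protein, was at 85.9, 79.8 and 81.2 FPKM in control and 42.4, 45.5 and 51.2 in HFD (-0.82 ± 0.08). Dapl1, a small protein of epithelial differentiation, was at 310.03, 299 and 269 and 212, 164 and 126 FPKM (-0.83 ± 0.17). Neither overlapped between the groups.

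Genes of mitosis formed the group with the highest share of called members. Of 44 genes of the spindle, kinetochore, chromosome condensation and cytokinesis, 39 rose and limma called 0 lower (0 also at an unadjusted p under 0.05), against 8.26% and 8.76% of all genes. Their median difference was 0.59, against 0.01 over all genes tested. All 44 had a positive difference, and in 42 every HFD library was above every control library, against 20.8% of all genes. Cenpe, the kinetochore motor that brings chromosomes to the spindle equator, was at 9.20, 11.6 and 13.5 FPKM in control and 25.6, 26.2 and 21.5 in HFD (1.04 ± 0.13). Aspm, which focuses spindle poles, was at 7.95, 8.68 and 10.03 and 16.7, 19.3 and 18.6 FPKM (0.96 ± 0.13). The ratios of the group means were 2.14 and 2.05. Knl1, a kinetochore scaffold, went from 7.09, 5.93 and 7.29 to 11.9, 13.4 and 13.97 FPKM, and Smc4, a condensin subunit, from 56.8, 51.4 and 59.1 to 89.95, 91.3 and 94.2. Cdk1, the kinase that drives entry into mitosis, was at 36.97, 37.4 and 43.1 FPKM in control and 55.8, 52.3 and 50.2 in HFD, the smaller end of the group (0.42 ± 0.08). Neither Plk1 (0.42 ± 0.14, adjusted p = 0.0539) nor Aurka (0.47 ± 0.15, 0.0528), kinases of mitosis, passed the test. The count was 31 without control replicate 2, the lowest of the leave-one-out counts, and 37 after the GC correction, and 31 genes held in every setting.

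The promoters of these genes are shown because the group moved together. The letters of 2 elements known from cell cycle promoters were searched in RefSeq windows of GRCm38.p6, from 250 bases before to 50 after the first listed start, on both strands. The first is the cell cycle gene homology region (CHR, letters TTTGAA), known as a binding element of the DREAM and MuvB complexes at genes that peak in mitosis. The second is an E2F-like element (letters TTTNNCGC), known from genes that peak in S phase. The searches were separate, so a stretch can count for both. The 6 stretches below have the CHR in capitals, each 5′ to 3′ on the strand of its gene.
Mki67: cgccgttttggTTTGAAtcgggcgggct
Cdk1: accgcggcgagTTTGAAactgctggc
Ncapg: cgcgatagttgTTTGAAaactctggcgc
Kif11: cgtctccatttTTCAAAattgaggcgcg
Top2a: ctagataaaggTTCAAAtgaaactaggg
Ccnb2: agggactagaaTTTGAAaataagactgt
They lie at chr7:135716461-135716488 (minus strand) for the proliferation marker Mki67, chr10:69352913-69352938 (minus) for Cdk1 and chr5:45669884-45669911 (plus) for the condensin gene Ncapg. Those of the spindle motor Kif11, the topoisomerase Top2a and the cyclin Ccnb2 lie at chr19:37376352-37376379 (plus), chr11:99024196-99024223 (minus) and chr9:70421705-70421732 (minus). Where the capitals read TTCAAA the element is on the opposite strand. Windows matched 38 of the 44 mitosis genes, and 29 of these (76.3%) held the CHR letters, 12 of them in the bases before the start. Of 8365 windows of tested genes 11.8% held them, and of all 27025 windows 18.1%. The E2F-like letters were in 4 of the 38 mitosis windows (10.5%) and in 9.2% of tested genes' windows. The letters CCAAT and TCACNCCAC were searched too. CCAAT was in 29 of the 38 mitosis windows (76.3%), 14 of 17 cholesterol synthesis windows (82.4%) and 39.1% of tested genes' windows. TCACNCCAC was in 0 of the 38, 1 of the 17 (5.88%) and 1.09% of tested genes' windows. These matches describe the letters only and were not tested for binding or for effect.

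Few genes of DNA replication were called. Of 40 genes of S phase, 1 was called higher and 1 lower, with a median of 0.03, and after scaling to total FPKM that median was -0.02. Pcna, the sliding clamp of DNA polymerase, was at 65.3, 65.2 and 69.5 FPKM in control and 72.7, 71.1 and 72.5 in HFD (0.11 ± 0.09), a small difference without overlap. Mcm6, a subunit of the replicative helicase, was at 48.5, 44.2 and 54.9 and 50.7, 52.04 and 48.3 FPKM, and the groups overlapped. Rrm2, the ribonucleotide reductase subunit that peaks in S phase, was at 50.8, 51.7 and 56.9 and 51.5, 47.9 and 44.4 FPKM, also overlapping. None of these 3 passed the test (adjusted p of 0.389, 0.804 and 0.185). The called members were Rrm1 (0.28 ± 0.08) and the licensing factor Cdt1 (-0.46 ± 0.13), and both calls ended after the GC correction and without most single libraries (highest adjusted p = 0.259 and 0.0946). Of the 40 genes 33 had a window, of which 5 (15.2%) held the CHR letters and 13 (39.4%) the E2F-like letters. The difference between the mitosis and replication lists was not tested.

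Regulators of the G1 phase were mixed. Ccnd1, the cyclin D1 that carries growth signals to the cell cycle, was at 80.2, 87.2 and 94.2 FPKM in control and 119.6, 127 and 129 in HFD (0.52 ± 0.08), with 23.4% of its exon length shared with another gene. Of 22 G1 regulators and cell cycle brakes 6 were higher, including both Ccnd1 and the inhibitor gene Cdkn2a, and 1 was lower, a call that ended without any single library of the 6. Only these 2 held in all settings, and the higher count was 3 without control replicate 2, without HFD replicate 2 and after the GC correction. Cdkn2b, the neighbour of Cdkn2a that encodes the inhibitor p15, was at 1.33, 2.18 and 1.87 FPKM in control and 4.76, 3.29 and 2.56 in HFD (0.68 ± 0.17, adjusted p = 0.0206). The groups did not overlap, but the call ended without control replicate 1, without HFD replicate 1 and with no minimum level (highest adjusted p = 0.0670). Cdkn1a, the p21 gene induced by p53, was at 21.8, 23.3 and 17.9 and 18.1, 20.8 and 14.4 FPKM, with overlapping groups and no call. Cip2a, an inhibitor of the phosphatase PP2A, and Mastl, the kinase that holds PP2A off during mitosis, both rose. Cip2a was at 11.8, 10.3 and 10.5 FPKM in control and 20.3, 19.5 and 22.2 in HFD (0.87 ± 0.08), and Mastl at 6.95, 6.30 and 7.89 and 13.4, 13.2 and 12.4 (0.80 ± 0.09). Among 29 genes of DNA damage and p53, 4 rose and limma called 0 lower (2 at an unadjusted p under 0.05). Of the risen, Plk2, a polo-like kinase (2.84, 2.51 and 2.72 to 5.41, 5.22 and 4.9997 FPKM), and Chek2, a checkpoint kinase (0.49 ± 0.09), held in all settings. That count was 2 without control replicate 2 and without each HFD library in turn.

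**Figure D3:**
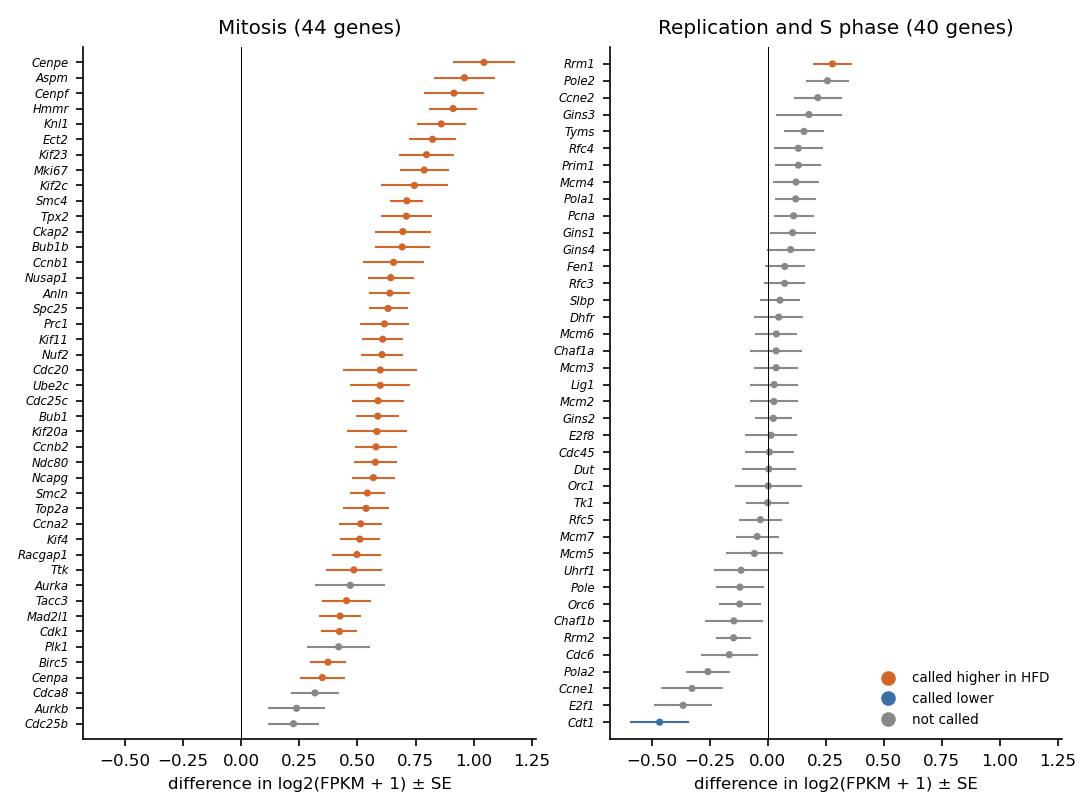
Difference in log2(FPKM + 1), HFD minus control, with its SE from limma for each of 44 mitosis genes (left) and 40 replication and S phase genes (right). All mitosis genes lie to the right of 0 and 39 were called higher, while the replication genes lie on both sides with 1 called in each direction.

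Clock genes were called in both directions. The mammalian clock is driven by the activators Clock or Npas2 with Arntl (BMAL1), which switch on the Per and Cry repressors and the output factors Dbp and Tef through E-boxes. Arntl was at 12.03, 11.99 and 11.4 FPKM in control and 6.99, 3.64 and 5.77 in HFD (-1.02 ± 0.18). Npas2 was at 8.47, 11.9 and 9.82 and 3.79, 2.01 and 3.06 FPKM (-1.50 ± 0.20). Both activators were lower in every HFD library, and HFD replicate 2 was the lowest for each. Their partner Clock was at 15.6, 15.5 and 12.6 and 15.3, 13.5 and 14.8 FPKM, and the groups overlapped. On the other arm Dbp was at 11.3, 16.3 and 19.3 FPKM in control and 35.5, 66.8 and 56.6 in HFD (1.68 ± 0.22), and Tef at 13.2, 16.2 and 16.97 and 31.2, 43.9 and 38.3 (1.23 ± 0.13). The repressors Nr1d2 (REV-ERB beta), Per3 and Bhlhe41 (DEC2) also rose. Nr1d2 went from 15.1, 15.7 and 17.1 to 24.6, 33.8 and 33.5 FPKM, Per3 from 1.46, 1.82 and 1.81 to 2.63, 4.05 and 3.34 and Bhlhe41 from 1.63, 1.77 and 1.81 to 3.38, 4.95 and 4.21. In all 5 of these genes HFD replicate 1 had the lowest HFD value, and it still lay above every control library.

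Further members of the loop were less firm. Cry1, a repressor, was at 9.75, 9.95 and 7.37 FPKM in control and 4.61, 3.90 and 4.37 in HFD (-0.91 ± 0.21, adjusted p = 0.0170), a fall whose call ended without control replicate 2, without HFD replicate 2 and with no minimum level (highest adjusted p = 0.0654). Nfil3, which opposes Dbp at shared sites, was at 3.46, 3.13 and 2.37 and 1.03, 1.55 and 1.18 FPKM (-0.82 ± 0.20). Its groups did not overlap, but the call ended without 4 of the 6 libraries, which were control replicates 1 and 2 and HFD replicates 1 and 3, and with no minimum level (highest adjusted p = 0.0654). Per1 was at 9.35, 22.3 and 14.1 and 6.01, 9.004 and 13.3 FPKM and Per2 at 2.44, 1.42 and 1.12 and 1.66, 3.54 and 4.74. Both overlapped between the groups and were not called. Of 19 activators and repressors 4 were higher and 3 lower, and of 11 output factors 2 were higher and 1 lower. Bhlhe40 (DEC1), a further repressor, was at 36.8, 40.6 and 40.7 and 47.4, 49.9 and 54.6 FPKM (0.35 ± 0.10, adjusted p = 0.0354), a call that ended without any 1 of the 6 libraries, after the GC correction, after total FPKM scaling and with no minimum level (highest adjusted p = 0.111). The labels give no time of day for the sampling.

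The E-box (letters CACGTG, which read the same on both strands) was searched in the same windows because it is the element of the activators. Windows were found for 5 of the 6 clock genes called higher and for all 4 called lower. The letters were in 2 of the 5 and in 1 of the 4, in 10.95% of tested genes' windows and in 7.24% of all windows. They are shown with the E-box in capitals, beside that of Per1.
Bhlhe41: ggtacgttccgCACGTGagctgggtgct
Tef: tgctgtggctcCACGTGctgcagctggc
Cry1: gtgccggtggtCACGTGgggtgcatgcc
Per1: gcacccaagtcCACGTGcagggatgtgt
These stretches lie at chr6:145865557-145865584 (minus strand), chr15:81802535-81802562 (plus), chr10:85185098-85185125 (minus) and chr11:69098772-69098799 (plus) on GRCm38.p6. Bhlhe41 and Tef rose, Cry1 fell and Per1 was not called. Ciart, another clock gene that was not called, also held the letters. Elements outside these windows were not searched, and binding and effect were not tested.

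**Figure D4:**
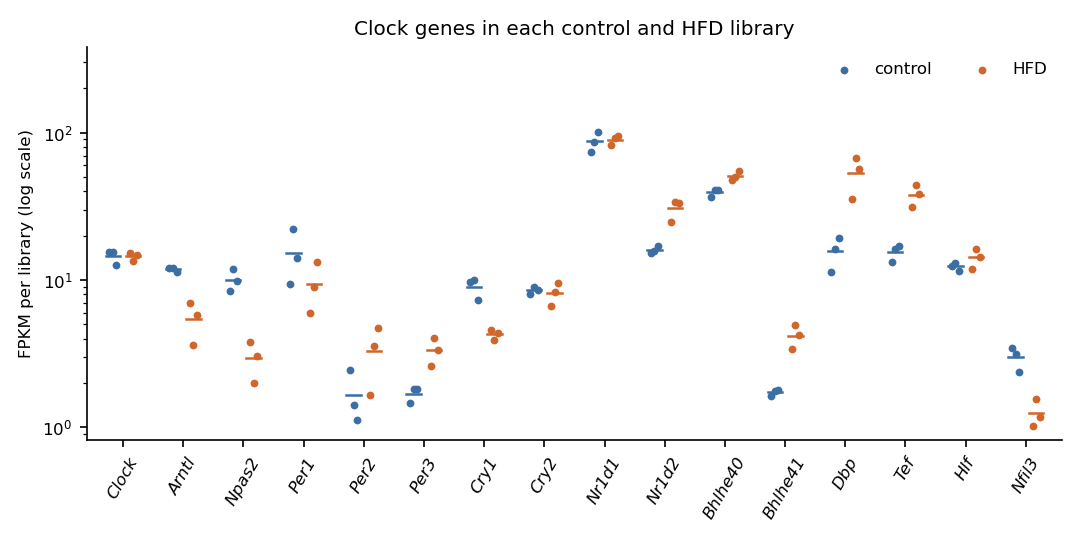
FPKM (log axis) of 16 clock genes in each control and HFD library, with a bar at each group mean. Arntl, Npas2, Cry1 and Nfil3 lie lower in all 3 HFD libraries, Per3, Nr1d2, Bhlhe40, Bhlhe41, Dbp and Tef lie higher in all 3, and Clock, Cry2 and Nr1d1 overlap.

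Some of the genes that make cholesterol and fatty acids fell in HFD. Sterol synthesis runs from acetyl-CoA through mevalonate and squalene and is switched on by the factor SREBP2 (gene Srebf2) when sterols are scarce. Srebf2 was at 37.3, 37.4 and 37.6 FPKM in control and 23.4, 25.5 and 22.7 in HFD (-0.63 ± 0.08), with narrow groups far apart. Of 23 cholesterol synthesis genes 9 fell and limma called 0 higher (0 also at an unadjusted p under 0.05), with a median of -0.36, and 5 of the falls held in all settings. The count was 5 without control replicate 2, HFD replicate 1 or HFD replicate 3. Hsd17b7, a sterol ketone reductase, was at 7.42, 7.52 and 6.59 FPKM in control and 5.08, 4.73 and 4.25 in HFD (-0.52 ± 0.09), and Hmgcs1, the synthase that makes HMG-CoA, at 88.6, 75.2 and 78.3 and 61.9, 62.3 and 66.3. Neither gene overlapped between the groups.

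Mylip (IDOL), a ubiquitin ligase that the sterol sensing LXR receptors switch on, was at 17.8, 18.2 and 19.3 FPKM in control and 30.6, 29.7 and 28.3 in HFD (0.65 ± 0.07). Mylip was higher in every HFD library. Of 12 genes of sterol uptake, storage and efflux 1 rose and 2 fell, with a median of -0.07. The lower count was 1 on omitting control replicate 2 or 3 or HFD replicate 1 or 2, and after the GC correction. Srebf1, the lipogenic member of the SREBP family, was at 46.5, 58.1 and 60.9 FPKM in control and 33.7, 35.1 and 39.4 in HFD. Of 15 genes of fatty acid synthesis and desaturation 6 fell and 1 rose, but only Srebf1 held in all settings, and 1 fall was left without control replicate 2. The rise was lost on omitting control replicate 2, HFD replicate 2 or HFD replicate 3. Fasn, the fatty acid synthase, was at 19.5, 22.2 and 20.8 and 13.3, 16.3 and 15.5 FPKM (-0.45 ± 0.10). The Fasn call ended without control replicate 2 (highest adjusted p over the alternatives 0.0540). Of 26 ceramide and barrier lipid genes limma called 0, with 1 in each direction at an unadjusted p under 0.05.

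Some genes that burn fatty acids rose. Of 27 genes of mitochondrial and peroxisomal oxidation 8 rose and 1 fell, with a median of 0.15. The higher count was 6 or 7 with any single library left out, and the fall was lost on omitting control replicate 2. Cpt1a, the gate for long-chain fatty acids into mitochondria, was at 20.8, 21.1 and 22.6 FPKM in control and 28.4, 32.7 and 33.9 in HFD. Hadha, a subunit of the trifunctional protein, was at 22.2, 22.9 and 22.9 and 30.4, 29.03 and 28.2 FPKM, and Etfa, which passes electrons from acyl-CoA dehydrogenases, at 66.2, 57.8 and 64.2 and 87.7, 87.2 and 92.2. Decr1 and Eci2, which handle double bonds, were at 15.6, 11.8 and 13.7 and 12.3, 12.9 and 13.5 FPKM in HFD against 9.30, 8.16 and 8.22 and 9.95, 8.33 and 8.29 in control. These 5 were the members whose rise held in all settings, and none overlapped between groups. Ucp2, a mitochondrial inner membrane carrier, was at 38.9, 33.3 and 37.6 and 51.7, 60.96 and 59.3 FPKM, and Cat, the peroxisomal catalase that clears hydrogen peroxide, at 24.98, 22.9 and 25.8 and 36.8, 38.01 and 35.5 (0.56 ± 0.07). Ppard, the fatty acid receptor PPAR delta, overlapped between groups, at 7.58, 6.17 and 7.61 and 5.71, 6.66 and 6.48 FPKM, and was not called. Genes of the TCA cycle had 1 of 21 higher and 0 lower by limma (6 and 0 at an unadjusted p under 0.05), although 10 of the 21 had every HFD library above every control library, against 20.8% of all genes. The call was lost on leaving out any 1 of the 6 libraries and with total FPKM scaling.

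Glycolysis and oxygen sensing had fewer firm members. Of 24 glycolysis genes 6 were higher and 1 lower. The higher count was 2 without control replicate 2, 3 without HFD replicate 2 and 10 without control replicate 3. The lower count was 0 after the GC correction and without every single library but control replicate 3. Tpi1, a triose isomerase, was at 109.6, 105 and 126 FPKM in control and 157, 143 and 150.1 in HFD (0.40 ± 0.08), and Slc16a1, the lactate and ketone transporter MCT1, at 30.5, 29.6 and 27.4 and 37.1, 35.6 and 39.1 (0.34 ± 0.07). Of 23 hypoxia genes 6 were higher and 1 lower, and the higher count was 3 without control replicate 2 or 3 or any HFD library. Bnip3, which marks mitochondria for removal, was at 9.44, 7.23 and 7.03 and 12.96, 14.2 and 13.2 FPKM, with 22.3% of its exon length shared with another gene. Egln3, a prolyl hydroxylase that tags HIF, was at 33.3, 39.3 and 34.9 and 60.5, 49.7 and 51.2 FPKM, and Ndrg1, a stress-induced protein, at 8.26, 7.02 and 6.58 and 9.98, 10.6 and 9.75. Those 3 were the members that held in all settings.

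Among 14 retinoid genes 4 fell and limma called 0 higher (2 at an unadjusted p under 0.05), with a median of -0.26. Only Adh1 held in all settings, and the count was 2 without control replicate 2 and after the GC correction. Rara, a retinoic acid receptor, was at 6.56, 6.40 and 7.07 FPKM in control and 3.88, 5.03 and 4.86 in HFD (-0.46 ± 0.10), and Rdh12, of the retinol dehydrogenase family, at 17.7, 21.7 and 16.2 and 14.04, 11.1 and 10.05 (-0.62 ± 0.14). The Rara groups and the Rdh12 groups did not overlap. The Rara call ended in both settings with the GC correction (highest adjusted p = 0.0781), and the Rdh12 call without control replicate 2 (0.0542).

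Some receptors, targets and feedback genes of growth factor pathways fell. FGF receptors signal through ERK, which switches on ETS factors such as Etv4 and Etv5 and the Sprouty feedback inhibitors. Etv4 was at 25.4, 25.1 and 28.8 FPKM in control and 10.1, 11.1 and 13.5 in HFD (-1.13 ± 0.10, adjusted p = 7.8e-04). Fgfr1, a receptor, was at 13.6, 12.8 and 10.1 and 7.72, 8.95 and 7.24 FPKM (-0.55 ± 0.11), and Spry2, a Sprouty, at 18.2, 22.4 and 19.5 and 12.4, 13.03 and 14.4 (-0.56 ± 0.12). Etv5 was at 7.30, 6.86 and 9.53 and 5.50, 6.05 and 6.59 FPKM, and it was not called (-0.33 ± 0.14, adjusted p = 0.125). In all 4 genes every HFD library was below every control library, as it was for 19.6% of all genes. Of 18 genes of FGF receptors and ERK feedback 5 fell and limma called 0 higher (0 also at an unadjusted p under 0.05), with a median of -0.30, and without control replicate 2 the count was 3. Of 13 genes of the EGF receptor family 4 fell and limma called 0 higher (0 also unadjusted), with a median of -0.03. Of these Rhbdf1 (iRhom1), which helps release EGF ligands, held in all settings, at 23.7, 28.8 and 25.2 and 15.1, 19.2 and 18.2 FPKM. That count was 1 without control replicate 2 or HFD replicate 1 and 2 without control replicate 1 or HFD replicate 2.

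Id1, Id2 and Id3 fell. The ID proteins block differentiation factors of the helix-loop-helix family and are direct targets of BMP signals. Id1 was at 32.7, 38.4 and 40.5 FPKM in control and 19.4, 23.2 and 25.5 in HFD (-0.69 ± 0.12), and Id3 at 39.4, 49.3 and 47.1 and 22.7, 27.5 and 30.2 (-0.74 ± 0.11). Id2 was lower in level and fell as well (-0.52 ± 0.10). Ltbp4, which holds latent TGF-beta in the matrix, was at 54.3, 61.5 and 66.5 and 33.2, 40.6 and 43.4 FPKM (-0.63 ± 0.12). Of 32 genes of TGF-beta and BMP signalling 5 fell and 1 rose, and the median was 0.00. The rise was lost on omitting control replicate 2, HFD replicate 2 or HFD replicate 3. Of 28 Wnt genes 4 fell and 2 rose. Both rises held in all settings, and they were the ligand Wnt10b, at 2.76, 3.04 and 2.97 and 5.45, 5.38 and 6.28 FPKM (0.77 ± 0.09), and the receptor Fzd6 (0.36 ± 0.07), while no fall did. The number of falls was 0 on omitting HFD replicate 1, 1 on omitting HFD replicate 2 or control replicate 3, and 2 on omitting control replicate 2 or HFD replicate 3 and after the GC correction. Jag2, a Notch ligand of basal cells, was at 94.2, 107 and 115 FPKM in control and 63.4, 71.6 and 81.3 in HFD (-0.54 ± 0.12). Of 14 Notch genes 2 fell and limma called 0 higher (1 at an unadjusted p under 0.05), with a median of 0.02. The lower count was 1 after the GC correction and on omitting control replicate 2, HFD replicate 1 or HFD replicate 3. Igfbp3, which binds insulin-like growth factors, rose from 80.8, 71.2 and 76.9 to 112, 109.7 and 119 FPKM (0.57 ± 0.10).

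More genes of the actin cytoskeleton rose than fell. Of 30 genes of actin and contractility 11 rose and 1 fell, with a median of 0.18, and 12 and 1 were called after the GC correction. The higher count was 6 without control replicate 2 or HFD replicate 1, 5 without HFD replicate 3 and 7 with total FPKM scaling. Rock1 and Rock2, the kinases that raise myosin tension, rose from 6.69, 5.94 and 6.33 to 8.72, 8.68 and 8.89 FPKM and from 12.4, 13.1 and 12.1 to 16.5, 17.7 and 16.99. Actn1, which crosslinks actin at adhesions, was at 16.5, 16.2 and 16.4 and 21.1, 24.5 and 24.3 FPKM (0.48 ± 0.08). Cald1, which binds actin and myosin in contractile cells, was at 2.25, 1.45 and 1.56 and 3.22, 4.02 and 4.52 FPKM (0.84 ± 0.13). Acta2, smooth muscle actin, was at 4.02, 5.16 and 7.88 FPKM in control and 11.1, 15.2 and 13.2 in HFD (1.11 ± 0.20). Acta2 is also a marker of vessel wall and of sweat gland cells. Of 14 endothelial and mural markers 11 were under 1 FPKM in every library of the series, with Myh11 at most 0.0445 FPKM, Rgs5 at most 0.00677 and Des at 0 in the 6 libraries, and the summed level was 25.9 to 37.9 FPKM in control and 37.8 to 48.3 in HFD. Of 13 sweat gland markers 6 were under 1 FPKM throughout, with Krt18 at most 0.706 FPKM and Foxa1 and Cftr at 0, and the summed level was 28.8 to 31.3 in control and 39.5 to 44.9 in HFD. Of the 5 tested sweat gland markers Acta2 and Slc12a2 rose, while the other 3 had negative differences and were not called. The other 2 tested endothelial and mural markers were not called either. The part of such cells in the result was not tested. The fall was that of Fscn1, which bundles actin in protrusions, at 15.3, 8.72 and 12.1 FPKM in control and 3.71, 6.32 and 3.88 in HFD (-1.21 ± 0.23). Zyx, a LIM protein of focal adhesions, was also lower, at 37.01, 31.1 and 35.9 and 19.1, 20.4 and 22.8 FPKM (-0.71 ± 0.13).

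At the basement membrane, genes were called in both directions. Dst, the plakin that ties keratins to hemidesmosomes, was at 31.6, 30.9 and 35.8 FPKM in control and 45.8, 47.1 and 49.96 in HFD (0.53 ± 0.08). Col4a5, a collagen IV chain, was at 16.7, 16.3 and 18.001 and 10.6, 10.96 and 12.2 FPKM (-0.55 ± 0.09), and Lama5, a laminin chain, at 30.3, 36.3 and 35.2 and 21.7, 23.6 and 24.5 (-0.52 ± 0.10). Col17a1, a hemidesmosome collagen that keeps stem cells attached, was at 1154, 1261 and 1388 FPKM in control and 1045, 1089.8 and 1267 in HFD, with overlapping groups and no call. Of 21 hemidesmosome and basement membrane genes 2 rose and 4 fell, with a median of -0.15. After the GC correction 3 were higher and 2 lower, with a median of 0.02. The higher count was 1 on omitting control replicate 2, HFD replicate 2 or HFD replicate 3. Only 2 falls were left in 4 cases, on leaving out control replicate 2, control replicate 3, HFD replicate 1 or HFD replicate 2.

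Matrix genes were called in both directions. Of 19 genes of matrix and its crosslinking 3 rose and 3 fell, with 1 fall left on omitting control replicate 2 or HFD replicate 1. Of 18 genes of hyaluronan and proteoglycans 3 rose and 3 fell, and 5 were lower on omitting HFD replicate 3. Of 12 metalloproteinases and inhibitors 3 fell and limma called 0 higher (1 at an unadjusted p under 0.05), with 1 fall left after the GC correction. Postn, the matricellular protein periostin, was at 55.5, 36.3 and 36.5 FPKM in control and 101, 132 and 82.2 in HFD (1.28 ± 0.18). Mmp3, the matrix protease stromelysin 1, was at 13.3, 6.77 and 11.7 and 4.63, 2.52 and 3.16 FPKM (-1.37 ± 0.24). The groups did not overlap for either, and HFD replicate 2 had the highest Postn and the lowest Mmp3 value of the HFD libraries. Sulf2, which trims sulfate from heparan sulfate, rose from 19.99, 19.7 and 23.6 to 33.2, 31.7 and 36.003 FPKM (0.65 ± 0.08), and Cd44, the hyaluronan receptor, from 101, 103 and 99.99 to 122, 135 and 133 (0.36 ± 0.07). Sdc4, the proteoglycan syndecan 4, fell from 123, 121 and 119 to 99.5, 92.9 and 91.9 (-0.35 ± 0.07). Hs3st6, a heparan sulfate sulfotransferase, fell from 26.9, 32.9 and 34.9 to 17.02, 13.2 and 16.6 FPKM (-0.97 ± 0.14). Dcn, the proteoglycan decorin, was at 6.47, 4.45 and 4.75 FPKM in control and 2.34, 2.33 and 1.41 in HFD (-1.04 ± 0.16), and Thy1, a surface protein, at 50.2, 45.9 and 53.3 and 37.3, 31.9 and 34.6 (-0.51 ± 0.10). Both are also fibroblast markers, and Thy1 is a T cell marker. The third of the 3 tested fibroblast markers, Col6a1, a collagen VI chain, was at 20.7, 21.5 and 24.5 FPKM in control and 27.7, 31.1 and 38.02 in HFD, above every control library but not called (adjusted p = 0.0646). Of 15 fibroblast markers 12 were under 1 FPKM in every library of the series and 4 of these at 0, with Col1a1 at most 0.176 FPKM, Col1a2 at most 0.0412 and Col3a1 at most 0.0501 in the 6 libraries. The summed level of the list was 72.6 to 83.3 FPKM in control and 66.1 to 74.7 in HFD, and its part in these falls was not tested. Of 9 T cell markers 7 were under 1 FPKM in every library, and the summed level, mostly Thy1 itself, was 46.5 to 54.1 FPKM in control and 32.9 to 38.6 in HFD.

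Some stress and alarm genes of the epidermis rose. Of 19 S100 proteins and annexins 7 rose and limma called 0 lower (1 at an unadjusted p under 0.05), with a median of 0.27. The count was 3 on leaving out control replicate 2, control replicate 3 or HFD replicate 2, and 4 on leaving out HFD replicate 1. Besides S100a8, Anxa6 and Anxa7, which bind membranes in the presence of calcium, held in all settings. Anxa6 was at 1.88, 1.53 and 1.73 FPKM in control and 3.62, 3.74 and 3.70 in HFD (0.79 ± 0.15), and Anxa7 at 62.5, 63.6 and 65.3 and 78.1, 83.2 and 82.97. S100a8 is also abundant in neutrophils. Of 11 other neutrophil markers 7 were at 0 in every library of the series, Retnlg, Mmp8 and Csf3r among them, Ly6g reached at most 0.0327 FPKM in the 6 libraries, and the summed level was 0.0272 to 0.313 FPKM in control and 0.102 to 0.278 in HFD. Il1rn, the antagonist that blocks the interleukin 1 receptor, was at 4.86, 3.69 and 4.38 FPKM in control and 7.67, 8.68 and 7.07 in HFD (0.73 ± 0.13). Il1f9 (IL-36 gamma), an agonist of the same family, was at 7.02, 5.66 and 5.44 and 10.6, 11.2 and 9.49 FPKM (0.70 ± 0.14). These were the 2 genes called higher among 23 alarmins and genes of the interleukin 1 family and NF-kB, of which 2 were lower, with a median of -0.05. The lower count was 0 on leaving out control replicate 1, HFD replicate 1 or HFD replicate 2, and 1 on leaving out control replicate 3 or HFD replicate 3. Il1r1, the receptor, was at 6.56, 5.85 and 5.95 and 4.60, 4.44 and 4.76 FPKM (-0.35 ± 0.09, adjusted p = 0.0214). The Il1r1 call was lost on leaving out control replicate 1, HFD replicate 1 or HFD replicate 2 (highest adjusted p = 0.0728).

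B2m, the light chain of MHC class I, was at 93.1, 65.9 and 63.1 FPKM in control and 155, 175 and 133 in HFD (1.06 ± 0.16). It was the only one of 14 class I presentation genes that limma called (3 were higher and 2 lower at an unadjusted p under 0.05). Of 12 interferon response genes 1 was called higher and 0 lower (3 and 1 unadjusted), and the higher count was 0 without each of the 6 libraries in turn except HFD replicate 1. Krt6a, a keratin of footpad and wounded epidermis, was at 140.4, 103 and 115 FPKM in control and 167, 315 and 269 in HFD (1.02 ± 0.19). HFD replicate 1 lay close to the controls and the other HFD libraries well above. Its partner Krt16 was at 38.5, 27.2 and 27.6 and 31.2, 73.3 and 44.2 FPKM, with overlapping groups and no call (adjusted p = 0.117). Reads of Krt6a can be split with near-identical keratin copies, and 24.8% of its exon length is shared with an overlapping gene model. Mt4, the metallothionein of stratified epithelia, was at 359.7, 389 and 294 FPKM in control and 594, 614 and 527 in HFD (0.74 ± 0.11), whereas Mt1, the general form, was at 262, 243 and 278 and 243, 262 and 269.7, with overlapping groups. Tgm3, a transglutaminase that crosslinks the cornified envelope, rose from 203, 219 and 241 to 292, 338 and 325 FPKM. Lce1a1, a late envelope gene, was at 4.01, 4.06 and 2.41 FPKM in control and 0.519, 0.942 and 0.439 in HFD (-1.45 ± 0.30). Of 35 spinous and granular genes 1 rose and 3 fell, against 8.26% and 8.76% of all genes. At an unadjusted p under 0.05 from limma, 3 were higher and 10 lower. There was 1 fall left on omitting HFD replicate 3, and there were 3 rises after the GC correction.

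Calcium genes changed in both directions. Calm2, which encodes the calcium sensor calmodulin, rose from 336, 317 and 333 to 438, 466 and 465 FPKM. Vsnl1, a calcium sensor best known from neurons, was at 12.6, 6.91 and 7.12 FPKM in control and 24.5, 24.1 and 27.4 in HFD (1.46 ± 0.21). Itpr2, a release channel of the endoplasmic reticulum, rose from 6.81, 6.69 and 6.68 to 9.49, 9.17 and 9.42 FPKM. Among channels and sensors of calcium entry, Trpv4 and Stim1 fell. Trpv4, a channel opened by warmth and stretch, was at 6.97, 7.60 and 7.54 and 4.14, 3.93 and 5.12 FPKM (-0.64 ± 0.10), and Stim1, which senses empty stores and opens entry channels, at 19.8, 19.8 and 20.4 and 14.1, 15.01 and 16.2 (-0.38 ± 0.07). Of 30 calcium genes 7 rose and 4 fell, of which 4 and 2 held in all settings. The higher count was 4 without HFD replicate 3, and 2 falls were left after the GC correction and on omitting control replicate 2 or HFD replicate 1.

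Among signals to vessels and nerves, Sema3f, a guidance cue that repels axons and vessels, fell from 36.2, 43.9 and 44.2 to 25.7, 25.1 and 28.3 FPKM (-0.63 ± 0.10). Efnb2, an ephrin ligand, fell from 15.97, 13.3 and 11.4 to 9.39, 9.78 and 8.97 FPKM (-0.48 ± 0.10). They were 2 of the 4 genes lower among 18, of which 2 were higher, and 2 falls were left on omitting control replicate 2 or HFD replicate 1. Among 33 genes of NRF2 and glutathione 7 rose and 4 fell. Of these Cat and Osgin1 alone held in all settings, and the higher count was 2 without control replicate 2 or HFD replicate 1, 3 without HFD replicate 2 or 3 and 4 after the GC correction. The lower count was 2 without control replicate 2 or HFD replicate 2 or 3. The higher count of the vessel and nerve signals was 0 or 1 without any single library.

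Transporters changed in both directions. Of 22 glucose and amino acid transporters 7 rose and 4 fell, with a median of -0.02, and the higher count was 3 on omitting control replicate 2 and 4 on omitting HFD replicate 3. Of 19 genes of ion and water transport 2 rose and 2 fell, shares near the background, and the lower count was 1 or 0 on omitting any of control replicates 2 and 3 and HFD replicates 1 and 2. Slc38a4, an amino acid transporter, was at 12.1, 10.5 and 10.01 FPKM in control and 3.36, 6.75 and 4.10 in HFD (-1.09 ± 0.20). Slc1a5, the glutamine carrier ASCT2, was at 7.67, 6.67 and 8.14 and 5.02, 3.77 and 3.92 FPKM (-0.70 ± 0.11). Against these falls Slc7a1, a carrier of cationic amino acids, rose from 20.8, 19.7 and 22.4 to 25.8, 27.1 and 29.8 FPKM, and Slc7a8, a light chain for neutral ones, from 1.07, 1.03 and 0.742 to 2.24, 1.89 and 2.17. Slc16a11, of the monocarboxylate transporter family, was at 14.8, 18.8 and 18.2 FPKM in control and 7.60, 7.76 and 8.53 in HFD (-1.02 ± 0.12). Slc12a2, a sodium, potassium and chloride cotransporter, rose from 17.6, 16.5 and 16.9 to 22.3, 23.6 and 24.9 FPKM, and Car2, a carbonic anhydrase, from 4.38, 2.02 and 2.33 to 7.37, 8.20 and 7.62 (1.21 ± 0.18). Slc25a28, the mitochondrial iron importer mitoferrin 2, fell from 25.4, 29.2 and 24.1 to 14.7, 12.7 and 13.5 FPKM (-0.90 ± 0.09).

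Some genes that make ribosomes fell, and the contrast with the ribosomal proteins was not tested. Of 30 ribosome biogenesis genes 9 fell and limma called 0 higher (2 at an unadjusted p under 0.05), with a median of -0.14. The count was 5 without control replicate 2, 6 after the GC correction, and 4 genes held in all settings. They were Noc4l, Rrp12, Mybbp1a and Noc2l, which act in the nucleolus, at 24.7, 25.8 and 25.9 to 18.99, 18.6 and 19.8 FPKM for Noc4l and 11.6, 13.3 and 12.03 to 8.57, 9.42 and 8.93 for Rrp12. Of 75 cytosolic ribosomal protein genes limma called 0 in either direction (3 higher and 1 lower at an unadjusted p under 0.05). Histone genes were not counted as a list, and H1f2 and H2aj were picked after their values were seen. The linker histone genes H1f5 and H1f2 fell. H1f5 was at 2.57, 3.57 and 2.41 FPKM in control and 0.568, 1.69 and 0.469 in HFD (-1.06 ± 0.22), and H1f2 at 73.3, 73.9 and 79.2 and 41.98, 43.3 and 62.8 (-0.63 ± 0.13). H2aj, a variant of histone H2A, was at 51.4, 57.3 and 59.7 and 31.2, 33.9 and 33.4 FPKM (-0.75 ± 0.14). None of the 3 overlapped between groups.

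**Figure D5:**
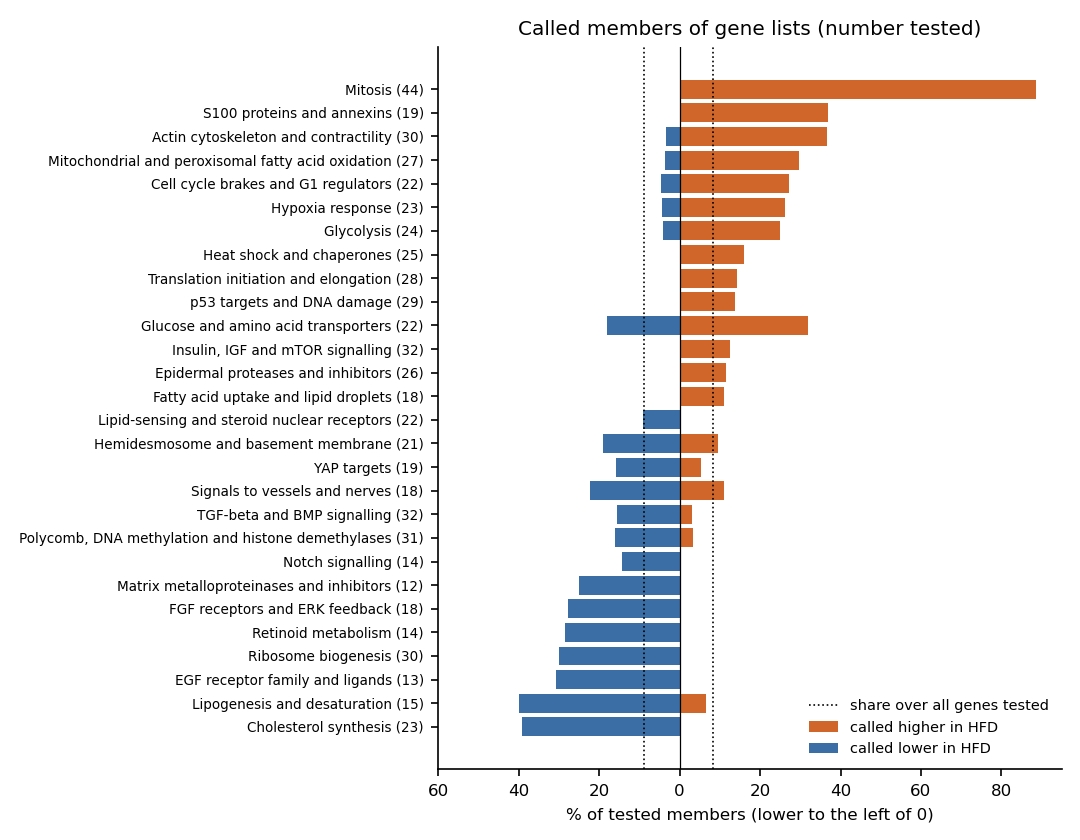
Share of tested members called higher (right) and lower (left) in HFD for 28 gene lists of at least 10 tested genes, the 14 with the greatest balance in each direction, with the number tested in brackets and dotted lines at the shares over all genes (8.26% and 8.76%). Mitosis stands furthest to the right, with 39 of 44 higher, and lipogenesis and desaturation (6 of 15 lower) and cholesterol synthesis (9 of 23) furthest to the left.

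Markers of other cells the sort could hold were mostly near 0, apart from those of the layers above the basal one. The summed level of 52 listed spinous and granular genes was 9208 to 11715.5 FPKM in control and 8232 to 11629.9 in HFD. The part of such cells in the result was not tested. Krt20 of Merkel cells and Tyr of melanocytes were at 0 in the 6 libraries, and Adipoq of fat cells, Ptprc of leukocytes, Cd3e of T cells and Pecam1 of vessels reached at most 0.0561, 0.0249, 0.0157 and 0.149 FPKM. Epcam, found on epithelial cells and on Langerhans cells, rose from 29.9, 27.6 and 24.2 to 44.6, 45.3 and 39.1 FPKM (0.64 ± 0.09). Cd207, the langerin gene that defines Langerhans cells, was under 1 FPKM in every one of the 6 libraries. The summed level of 15 Langerhans and myeloid markers, Epcam included, was 34.6 to 46.3 FPKM in control and 49.3 to 59.4 in HFD, mostly Epcam itself. Of the other 4 tested members of that list none was called, 3 had a negative difference, and the median of all 5 was -0.36. Tnni2, a troponin of fast muscle, rose from 2.08, 1.99 and 2.25 to 4.27, 3.97 and 3.96 FPKM (0.71 ± 0.11), while the muscle genes Ckm, Acta1 and Myh4 were at most 0.0633, 0.0417 and 0 FPKM. The summed level of 10 muscle markers was 4.39 to 8.02 FPKM in control and 7.77 to 8.89 in HFD. Schwann cell markers were another exception, with a summed level of 41.1 to 42.1 FPKM in control and 46.4 to 49.2 in HFD. Of 8 such markers 4 were under 1 FPKM in every library, and of 3 tested 1 was called higher. That count was 0 on omitting control replicate 1 or 2 or HFD replicate 1 or 2. Of all 14 marker lists, those of neutrophils, mast cells, melanocytes, Merkel cells, fat cells and erythroid cells had 0 members that reached the level for testing. The part of other cells in the rises of Epcam, Tnni2 and the Schwann cell marker was not tested.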

How the data were processed

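RNA was measured in 9 libraries of CD49f+ CD34- plantar basal cells. Per the submitters' processing notes, reads were handled with cutadapt, STAR 2.6.0c, HTSeq 0.11.2 and DESeq2 1.30.0 on mm10. The tool behind the FPKM and the strand setting of the counting are not given in the sources used here, which makes genes with an antisense neighbour uncertain. The deposited table holds FPKM per gene and library, as the authors made it, for 22399 rows. Low values were whole multiples of 1 step per library (97.5% to 98.2% within a tolerance of 0.02), and the reads so recovered summed to 23.5 to 35.8 M per control or HFD library. Precision was set by 3 libraries a group, and the median SE was 0.10.

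Values were analysed as log2(FPKM + 1), which understates changes of low genes. Limma 3.58.1 in R 4.3.3 fitted a mean for each of the 3 groups to the 9 libraries, with a trended prior of 5.50 degrees of freedom added to the 6 of the residuals, and tests were two-sided. P-values were Benjamini-Hochberg adjusted over 10367 genes. Genes named were the largest changes without overlap between groups (30 per direction), the 10 smallest adjusted p and 10 highest levels per direction, up to 6 members per list by p, a fixed set of markers, and genes under 1 FPKM in all of 1 group and over 2 in all of the other. Aurka, Ccnb2, Cdk1, Cdkn1a, Clock, Cry2, Etv5, H1f2, H2aj, Kif11, Mcm6, Mt1, Ncapg, Pcna, Plk1, Rrm2, Top2a and the marker genes of other cells given by their highest value were named outside this rule, after their values were seen. The 63 gene lists, 14 marker lists and members were chosen with earlier results of these data known. GENCODE M21 (GRCm38) matched 22362 rows and gave positions and overlaps, and RefSeq on GRCm38.p6 gave promoter windows for 8365 of the tested genes. On simulated data with 200 changed genes of 10367 (5 draws), 94.4% of changes of 1 and 62.6% of changes of 0.5 in log2 were called, and 5.64% of calls were false. The simulated noise was independent between genes and had no shift with GC content. That false share therefore cannot be read as the false share of the real calls. The 21 alternatives were a pseudocount of 0.1, no minimum, a minimum of 5 FPKM, quantile, median-ratio and total FPKM scaling, a loess GC correction, library weights, robust eBayes, a replicate block with and without that correction, the 6 libraries alone, and each of 9 libraries left out. Some genes that the rule names are not reported here. The single-cell data of the series were not analysed here.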

Additional observations from a re-analysis of the deposited data

How the results depend on the processing

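Of 10367 genes tested, 856 were higher and 908 lower in HFD. There were 597 lower with no minimum on the level, 555 after the GC correction and 598 with the replicate block and GC correction together. Under a test against a change of 0.5 in log2 (treat), 1 gene was higher and 1 lower. Total FPKM scaling gave 597 higher and 1165 lower. Leaving out 1 library at a time gave 385 to 1037 higher and 364 to 1072 lower. The fewest calls came without control replicate 2. Without HFD replicate 1, 2 or 3 there were 449 and 427, 431 and 471, and 485 and 529. Leaving out control replicate 3 gave 599 lower. The replicate block gave 978 and 1083. Deviations from the group mean had correlations of 0.06, 0.07 and 0.27 between same-numbered control and HFD libraries. Those of the other pairs ran from -0.24 to 0.18. The labels do not say whether same-numbered libraries belong together, and these values cannot decide it.

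Signs were compared between settings for a set of 151 genes only, not for all genes tested. Among these the sign of 5 uncalled genes turned in some settings, and the cause was not tested. The log2 difference of Clock was -0.046 with total FPKM scaling, -0.14 after the GC correction with or without the block, and -0.040 with library weights. After the GC correction with or without the block Cry2 was at 0.040, Mt1 at 0.029 and Mcm6 at -0.015. Mt1 was at 0.0040 with library weights and Mcm6 at -0.012 with total FPKM scaling. Nr1d1 was at -0.034 after quantile normalization and -0.00032 with total FPKM scaling. Leaving out 1 library at a time gave -0.091 to 0.050 for Clock, -0.17 to 0.062 for Cry2, -0.036 to 0.12 for Mcm6, -0.065 to 0.032 for Mt1 and -0.067 to 0.16 for Nr1d1.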
